A study of Rattus norvegicus with 16 samples.

Results

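The genes described here are 10 markers of mesenchymal stromal cells and osteoprogenitors, chosen by name: Pdgfra, Pdgfrb, Cxcl12, Lepr, Thy1, Nt5e, Nes, Prrx1, Twist1 and Kitlg. Of these, 9 had an array row of their own among the 17245 genes measured, and each of the 9 had 1 row. The only row that names Lepr also names Leprot, so no value is given for Lepr. Their levels were read in RNA from cells that stayed attached to titanium implants retrieved from the tibiae of male Sprague Dawley rats, on Affymetrix Rat Gene 1.1 ST arrays. AT-I implants had a nanoscale topography and AT-II implants a microrough one lacking nanoscale features. Each rat had an AT-I pair in one tibia and an AT-II pair in the other, and the implants of a pair supplied 1 RNA sample. Different rats were used at each day, 4 per day. The 16 arrays form the groups AT-I day 4, AT-I day 2, AT-II day 4 and AT-II day 2, with 4 arrays each. No unimplanted bone or intact marrow was among the samples used here.

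Mesenchymal stromal cells of bone and marrow are the source of osteoblasts, the cells that lay down bone, and they also form part of the niche that holds blood-forming cells. They are commonly recognised by the platelet-derived growth factor (PDGF) receptors, by surface proteins such as Thy1 and Nt5e, and by transcription factors of limb and skull mesenchyme such as Prrx1 and Twist1. In bone repair such cells enter the wound from the periosteum, marrow and vessel walls, proliferate and differentiate.

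Values are log2 expression levels from robust multi-array averaging (RMA), which corrects background, normalizes the probes across arrays and summarises the probes of each row, and the log base is inferred from that method. A difference of 1 is a 2-fold difference, and each array row has its own baseline, so levels are compared between samples within a gene and not between genes. Of the 120 pairs of arrays, replicates 2 and 3 of AT-II day 2 were the closest. Among the most variable rows the SD of their difference was 0.109, whereas the next closest pair on this measure had 0.294, and they were counted as 1 sample, so AT-II day 2 has n = 3. Arrays did not have the same spread of values. The interquartile range was 2.60 to 3.41 in AT-I day 4, 2.48 to 2.98 in AT-I day 2, 3.10 to 3.42 in AT-II day 4 and 3.05 to 3.43 in AT-II day 2. As a mark of the low end of each array, the 90th percentile of 1126 olfactory receptor genes was used, and it lay between 5.35 and 7.02. Precision is limited throughout by how few arrays there are.

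Of the 9 markers, 3 rose on AT-I at day 4 relative to day 2 and 0 fell. Pdgfra had the largest rise, 4.68-fold, followed by Twist1 (3.28-fold) and Prrx1 (2.41-fold). On AT-II only Pdgfra passed the test, with a rise of 3.12-fold. A gene passed when its adjusted p in limma (Benjamini-Hochberg over all 17245 genes) was under 0.05. In the same comparisons 11.5% of all genes passed on AT-I (8.84% higher and 2.66% lower) and 3.33% on AT-II (3.13% higher and 0.203% lower). The median difference of the 9 markers was 0.39 on AT-I, where that of all genes was -0.05, and 0.25 on AT-II, where that of all genes was also -0.05. All 9 differences were positive on AT-I and 8 of 9 on AT-II, of which 6 and 7 did not pass. When arrays were centred on their medians, the median of all genes shifted to -0.21 on AT-I and -0.16 on AT-II. The share of passing genes that were higher at day 4 was then 39.7% on AT-I and 72.2% on AT-II, against 76.9% and 93.9% as deposited. The samples are mixed cells, so fewer cells of a type and less RNA per cell cannot be told apart.

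**Figure D1:**
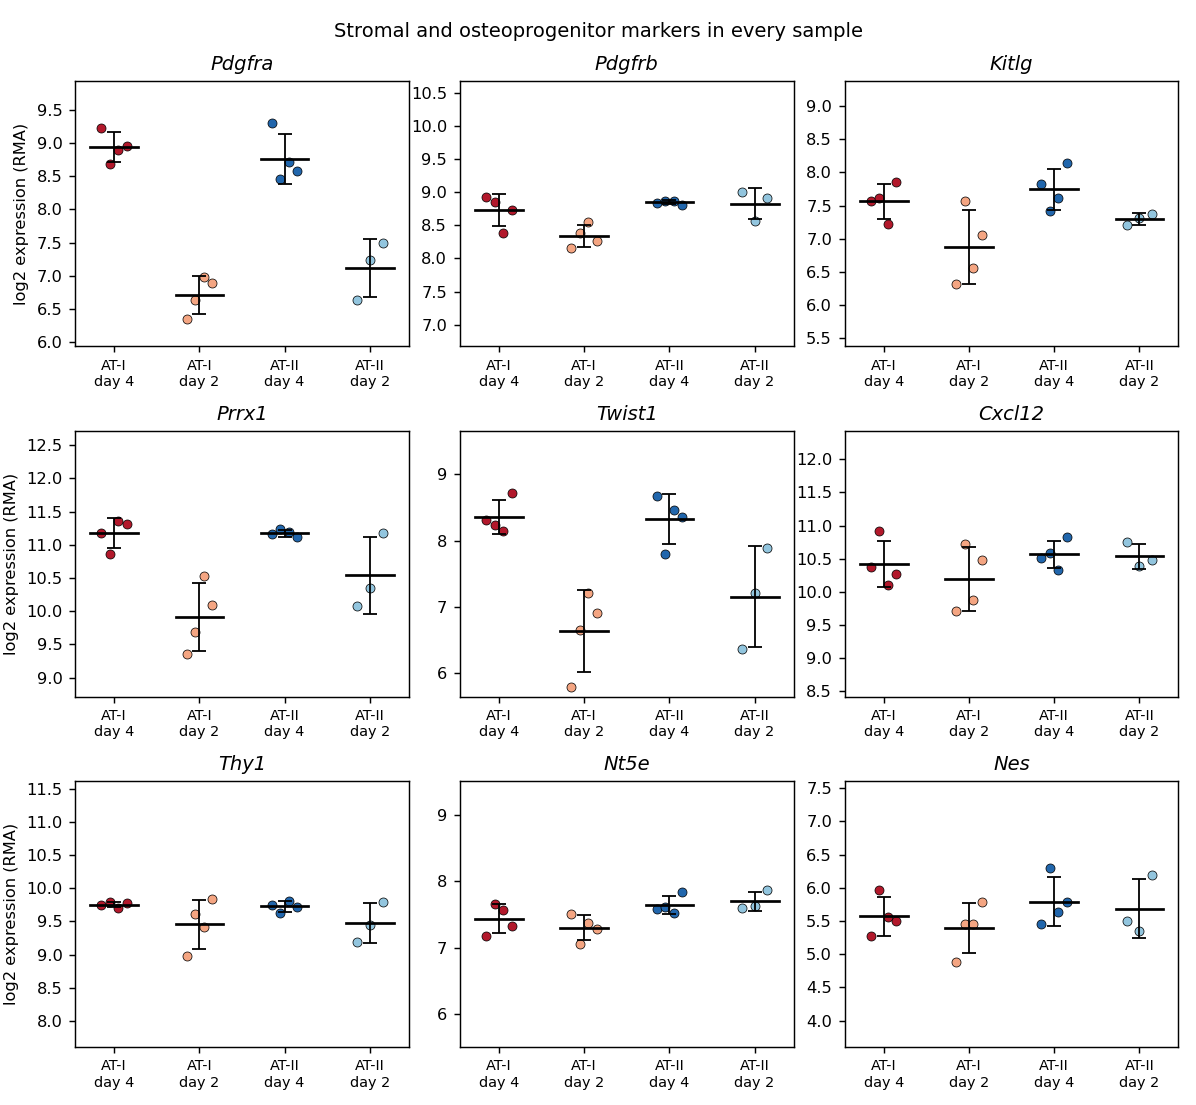
Levels of the 9 measured markers in every sample. Each point is 1 sample on the log2 RMA scale, and the line and bar give the mean and SD of each group (n = 4, and n = 3 for AT-II day 2). Each panel spans the same number of log2 units around the gene's own mean. The day 4 points of Pdgfra lie at 8.46 or above on both surfaces and the day 2 points at 7.49 or below, while Cxcl12, Nt5e and Nes overlap between days.

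The promoters of the 3 genes that passed are shown here because these genes were higher at day 4 together. Each is the RefSeq window of 300 bases on build GRCr8, made of 250 bases before and 50 after the start used in the promoter table, read 5′ to 3′ on the gene's strand. Pdgfra lies at chr14:33408467-33408766 (minus strand), Prrx1 at chr13:78204024-78204323 (minus strand) and Twist1 at chr6:56402059-56402358 (plus strand). For Pdgfra and Prrx1 the start used lies inside the annotated span of the gene, and for Twist1 it is the first base of that span. Capitals mark matches, on either strand, to the E-box CANNTG, which basic helix-loop-helix factors such as Twist1 bind, to the homeodomain core TAATTA, to TATAAA and to the GC box GGGCGG.
Pdgfra: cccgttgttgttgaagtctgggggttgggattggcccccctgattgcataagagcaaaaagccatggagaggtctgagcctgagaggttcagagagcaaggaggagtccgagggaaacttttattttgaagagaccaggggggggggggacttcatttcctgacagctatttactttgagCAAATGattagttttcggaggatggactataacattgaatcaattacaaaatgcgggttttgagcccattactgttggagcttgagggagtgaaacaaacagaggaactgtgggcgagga
Prrx1: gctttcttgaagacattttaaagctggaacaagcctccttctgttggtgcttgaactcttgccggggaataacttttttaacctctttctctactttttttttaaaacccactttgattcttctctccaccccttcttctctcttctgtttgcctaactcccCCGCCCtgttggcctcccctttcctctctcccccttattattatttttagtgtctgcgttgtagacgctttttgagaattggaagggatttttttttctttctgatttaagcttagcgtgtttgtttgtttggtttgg
Twist1: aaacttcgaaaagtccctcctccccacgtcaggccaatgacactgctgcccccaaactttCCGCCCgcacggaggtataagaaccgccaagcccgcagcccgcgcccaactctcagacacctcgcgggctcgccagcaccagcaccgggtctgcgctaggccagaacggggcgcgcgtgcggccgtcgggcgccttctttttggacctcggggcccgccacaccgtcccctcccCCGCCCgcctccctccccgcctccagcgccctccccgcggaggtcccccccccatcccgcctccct
Pdgfra held 1 E-box, the letters CAAATG beginning 70 bases before that start. Prrx1 held 1 GC box and Twist1 held 2 GC boxes. Over the 33469 promoters of the same length in this table, 72.1% held the E-box letters, 5.36% TAATTA, 14.2% TATAAA and 33.1% the GC box. The table held 7 of the 9 measured markers, and among the other 4 of these Cxcl12 and Kitlg each held 1 E-box and 3 GC boxes, Nt5e 3 GC boxes and Nes 2 GC boxes. Of the 7, Kitlg was the one with a TATAAA match. A match says that the letters are there, and nothing of whether a factor binds.

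Pdgfra encodes the alpha receptor for PDGF, a tyrosine kinase of mesenchymal progenitors. On AT-I its log2 level was 9.22, 8.68, 8.90 and 8.95 in the day 4 samples, against 6.34, 6.63, 6.98 and 6.90 in the day 2 samples. Its AT-II levels were 9.31, 8.46, 8.72 and 8.57 at day 4, against 6.63, 7.24 and 7.49 at day 2. Every day 4 sample was above every day 2 sample on its surface. The difference was 2.23 ± 0.21 (SE) on AT-I (limma adjusted p = 2.3e-05) and 1.64 ± 0.23 on AT-II (limma adjusted p = 0.000654), and Pdgfra passed on both surfaces under each of 28 alternative settings. The AT-I day 2 levels of replicates 1 and 3 (6.34 and 6.98) were at or below the low end of their arrays (7.02 and 7.00).

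Pdgfrb encodes the beta receptor, which pericytes and vessel-associated stromal cells carry. On AT-I its log2 level was 8.93, 8.85, 8.39 and 8.73 at day 4, against 8.15, 8.38, 8.55 and 8.27 at day 2. The AT-II samples had 8.84, 8.87, 8.87 and 8.81 at day 4, against 9.001, 8.56 and 8.90 at day 2. The day 4 levels on AT-II kept between 8.81 and 8.87, inside the range of day 2. The difference was 0.39 ± 0.14 on AT-I (limma adjusted p = 0.0805) and 0.03 ± 0.15 on AT-II (limma adjusted p = 0.975, 95% interval -0.29 to 0.34). Without AT-I day 4 replicate 3 the AT-I difference was 0.50 and passed (adjusted p = 0.0190).

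The receptors moved by different amounts in these samples. Within each sample the log2 level of Pdgfra minus that of Pdgfrb was 0.22 ± 0.28 (SD, n = 4) in AT-I day 4 and -1.62 ± 0.20 (SD, n = 4) in AT-I day 2. It was -0.08 ± 0.38 (SD, n = 4) in AT-II day 4 and -1.70 ± 0.58 (SD, n = 3) in AT-II day 2. The balance shifted toward Pdgfra by 1.84 on AT-I and by 1.62 on AT-II, and on neither surface did the day 4 samples overlap those of day 2. Because Pdgfra was at or below the low end in 2 of 4 AT-I day 2 samples, the size of the AT-I shift is uncertain. This contrast was chosen after the values were seen and is given as a description, and only its change between days can be read, because the 2 rows have different baselines.

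The ligands of these receptors differed in the same comparison. Pdgfd, whose product acts mainly through the beta receptor, had log2 levels of 8.84, 8.13, 7.59 and 9.23 in AT-I day 4 samples, against 4.82, 6.27, 6.09 and 6.23 in AT-I day 2 samples. On AT-II it had 9.13, 7.81, 8.68 and 8.60 at day 4, against 5.54, 6.67 and 6.98 at day 2. It rose by 2.59 ± 0.42 (SE) on AT-I (limma adjusted p = 0.000803) and by 2.16 ± 0.45 on AT-II (limma adjusted p = 0.0124), without overlap on either surface. The AT-I day 2 levels of replicates 1, 3 and 4 and the AT-II day 2 level of replicate 1 were at or below the low end of their arrays, so the size of these rises is uncertain. Pdgfc, which acts mainly through the alpha receptor, rose by 1.45 ± 0.21 on AT-I (limma adjusted p = 0.000301) and by 1.19 ± 0.22 on AT-II (limma adjusted p = 0.00609), with 1 of 4 AT-I day 2 samples at or below the low end. Pdgfa, the classic alpha receptor ligand, rose by 1.16 ± 0.22 on AT-I (limma adjusted p = 0.00263) and by 0.90 ± 0.23 on AT-II (limma adjusted p = 0.0481). Pdgfb, which binds both receptors, did not pass, with differences of 0.41 ± 0.21 on AT-I (limma adjusted p = 0.214) and 0.15 on AT-II. Its levels averaged 7.20 ± 0.35 (SD, n = 4) in AT-I day 4 and 6.79 ± 0.26 (SD, n = 4) in AT-I day 2. Pdgfb was at or below the low end in 1 of 4 AT-I day 4 samples and 2 of 4 AT-I day 2 samples. All 3 rises passed under every alternative on AT-I. On AT-II each depended on AT-II day 2 replicate 1, without which Pdgfc had 0.96 (adjusted p = 0.0534), Pdgfd 1.73 (adjusted p = 0.107) and Pdgfa 0.76 (adjusted p = 0.284). Pdgfd also lost its call on AT-II without AT-II day 4 replicate 1 (1.97, adjusted p = 0.0509), and Pdgfa passed there under 13 of 28 alternatives. Of the samples left out singly, Pdgfa kept its AT-II call only when the one missing was replicate 1 or 3 of AT-I day 2, replicate 2 of AT-I day 4 or replicate 4 of AT-II day 2.

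**Figure D2:**
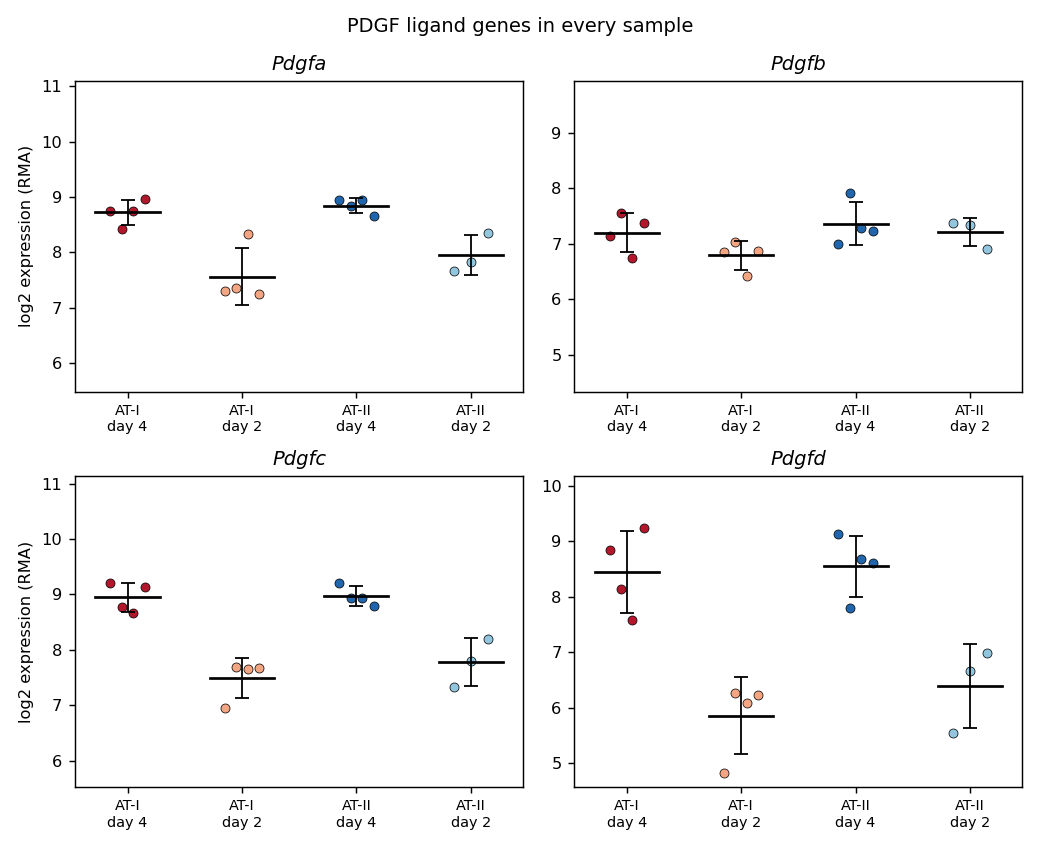
Levels of the 4 PDGF ligand genes in every sample. Points are samples on the log2 RMA scale, with the mean and SD of each group, and the panels span equal ranges. Pdgfd spans 4.82 to 9.23 and separates the days on both surfaces, with 3 of 4 AT-I day 2 samples and AT-II day 2 replicate 1 at or below the low end of their arrays, while Pdgfb overlaps between days. Pdgfb was at or below the low end in 1 of 4 AT-I day 4 samples and 2 of 4 AT-I day 2 samples.

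Prrx1 encodes a paired-related homeodomain factor of limb and skeletal mesenchyme. On AT-I its log2 level was 11.18, 10.87, 11.35 and 11.32 at day 4, against 9.35, 9.68, 10.53 and 10.09 at day 2. AT-II samples had 11.16, 11.24, 11.20 and 11.11 at day 4, against 10.08, 10.35 and 11.18 at day 2. The days did not overlap on AT-I, and on AT-II replicate 4 of day 2 lay within the day 4 range. Prrx1 rose by 1.27 ± 0.24 (SE) on AT-I (limma adjusted p = 0.00302), under every alternative. On AT-II the difference was 0.64 ± 0.26 (limma adjusted p = 0.288), or 0.96 if AT-II day 2 replicate 4 was left out, where it passed (adjusted p = 0.0473).

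Twist1 encodes a basic helix-loop-helix factor that in mice restrains the onset of osteoblast differentiation. On AT-I its log2 level was 8.31, 8.24, 8.14 and 8.72 at day 4, against 5.79, 6.65, 7.21 and 6.91 at day 2. On AT-II it was 8.68, 7.80, 8.47 and 8.36 at day 4, against 6.37, 7.22 and 7.89 at day 2. The groups were apart on AT-I, while on AT-II the highest day 2 sample, again replicate 4, passed the lowest day 4 sample. Twist1 rose by 1.71 ± 0.32 (SE) on AT-I (limma adjusted p = 0.00241), under every alternative. On AT-II the difference was 1.17 ± 0.34 (limma adjusted p = 0.0872), and it passed under 6 of 28 alternatives. Among these were leaving out AT-II day 2 replicate 4 (1.53, adjusted p = 0.0215), leaving out AT-I day 2 replicate 1 (1.17, adjusted p = 0.0352) and counting all 16 arrays separately (1.16, adjusted p = 0.0369). AT-I day 2 replicate 1, at 5.79, was below the low end of its array.

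Kitlg encodes stem cell factor, the ligand of Kit, through which stromal cells maintain blood-forming cells and mast cells. On AT-I its log2 level was 7.57, 7.62, 7.22 and 7.85 at day 4, against 6.32, 7.58, 6.56 and 7.06 at day 2, with replicate 2 of day 2 inside the day 4 range. AT-II samples had 7.82, 7.42, 7.62 and 8.14 at day 4, against 7.21, 7.32 and 7.38 at day 2, without overlap. In that comparison 8.74% of all genes were higher and 7.63% lower without overlap, and Pdgfra and Kitlg were the 2 of 9 markers that were higher. On AT-I the 3 markers that passed were those without overlap, where 11.3% of all genes were higher and 4.01% lower. The difference of Kitlg was 0.68 ± 0.23 (SE) on AT-I (limma adjusted p = 0.0675) and 0.45 ± 0.25 on AT-II (limma adjusted p = 0.496). On AT-I Kitlg passed under 4 of 28 alternatives, with 0.92 (adjusted p = 0.00918) without AT-I day 2 replicate 2 and 0.80 (adjusted p = 0.0381) without AT-I day 4 replicate 3. Of its AT-I day 2 values, those in replicates 1 and 3, were at or below the low end of their arrays.

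Cxcl12 encodes the chemokine by which stromal cells hold Cxcr4-bearing blood cells in the marrow. On AT-I its log2 level was 10.38, 10.92, 10.11 and 10.27 at day 4, against 9.72, 10.72, 9.87 and 10.48 at day 2. On AT-II it was 10.51, 10.58, 10.33 and 10.84 at day 4, against 10.75, 10.39 and 10.47 at day 2. Samples of both days interleave on each surface. The differences were 0.22 ± 0.22 on AT-I (95% interval -0.24 to 0.69) and 0.03 ± 0.24 on AT-II (-0.48 to 0.53), and neither passed (limma adjusted p = 0.514 and 0.982).

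Thy1, Nt5e and Nes encode the surface glycoprotein CD90, the ecto-5′-nucleotidase CD73 that makes adenosine from AMP, and the intermediate filament nestin of progenitors and vessel-associated cells. On AT-I the log2 level of Thy1 was 9.74, 9.79, 9.71 and 9.78 at day 4, against 8.97, 9.61, 9.42 and 9.84 at day 2. On AT-II Thy1 was 9.76, 9.63, 9.81 and 9.71 at day 4, against 9.19, 9.44 and 9.79 at day 2. The day 4 samples kept within a narrow band, with an SD of 0.04 on AT-I and 0.08 on AT-II, against 0.37 and 0.31 at day 2, and on each surface the highest day 2 sample reached that band.
Nt5e was 7.18 to 7.66 in AT-I day 4 and 7.05 to 7.50 in AT-I day 2. On AT-II it was 7.53 to 7.84 at day 4 and 7.60 to 7.87 at day 2. Nes was the dimmest row, at 5.27 to 5.97 in AT-I day 4, 4.89 to 5.78 in AT-I day 2, 5.45 to 6.30 in AT-II day 4 and 5.35 to 6.19 in AT-II day 2. In 10 of 15 samples Nes lay at or below the low end of the array, so its differences say little of its expression. None of these genes passed on either surface. On AT-I the differences were 0.30 ± 0.16 for Thy1, 0.13 ± 0.14 for Nt5e and 0.18 ± 0.23 for Nes (limma adjusted p = 0.247, 0.543 and 0.635). On AT-II they were 0.25 ± 0.18 for Thy1, -0.06 ± 0.15 for Nt5e and 0.11 ± 0.25 for Nes (limma adjusted p = 0.623, 0.933 and 0.927).

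**Figure D3:**
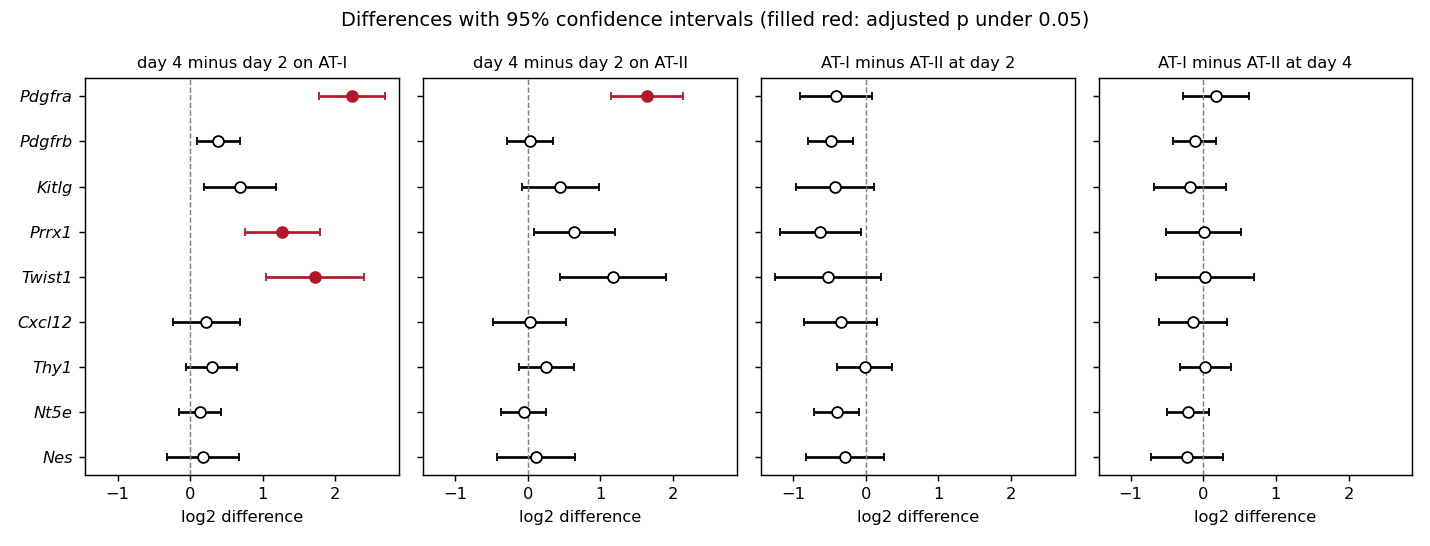
Differences of the 9 markers in the 4 comparisons, in log2 units, with 95% confidence intervals from the limma fit. Filled red points have an adjusted p under 0.05. Pdgfra, Prrx1 and Twist1 are filled on AT-I and Pdgfra on AT-II, and no marker is filled between surfaces.

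Samples within a group differed across the markers at once. AT-I day 2 replicate 1 was the lowest of its group for 8 of 9 markers, with a mean deviation of -0.42 from the group means. AT-II day 2 replicate 1 was the lowest for 6 of 9 (-0.22), and AT-II day 2 replicate 4 the highest for 7 of 9 (0.31). The same AT-II day 2 replicate 4 held the highest mean osteoblast marker level of its group (8.60), and both replicates numbered 1 at day 2 held the lowest of theirs (6.99 on AT-I and 7.24 on AT-II). With both of these left out together, Pdgfra, Prrx1 and Twist1 still passed on AT-I and Pdgfra on AT-II.

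The study's design asks which genes the implant surfaces regulate. Between AT-I and AT-II at day 2, 0 of 9 markers passed, and 0% of all 17245 genes did in limma with the agreeing pair averaged, although 4701 genes and 3 of the markers (Pdgfrb, Nt5e and Prrx1) had an unadjusted p under 0.05. All 9 differences were negative, with a median of -0.41 where that of all genes was -0.09. Pdgfrb and Nt5e were lower on AT-I without overlap, as were 11.3% of all genes, while 8.83% were higher without overlap. The Pdgfrb difference was -0.48 ± 0.15 (SE, limma adjusted p = 0.128), and the levels averaged 8.34 ± 0.17 on AT-I and 8.82 ± 0.23 on AT-II (SD, n = 4 and 3). That of Nt5e was -0.40 ± 0.15 (limma adjusted p = 0.135), and the levels averaged 7.31 ± 0.19 on AT-I and 7.70 ± 0.15 on AT-II (SD, n = 4 and 3). Prrx1 had the largest difference, -0.63 ± 0.26 (limma adjusted p = 0.158, 95% interval -1.18 to -0.07), and Thy1 the smallest, -0.02 ± 0.18. These arrays also differ in their spread. With the interquartile range of each array as a covariate the differences of Cxcl12 and Kitlg turned to 0.16 and 0.18, and that of Thy1 turned positive too. With all 16 arrays counted separately 2193 genes passed and 0 of the 9 markers did. With array weights 3713 genes passed and 2 markers, Pdgfrb (-0.40, adjusted p = 0.0434) and Nt5e (-0.41, adjusted p = 0.0401). The labels do not say that the replicate numbers pair the samples, and with the number as a block the outcome depended on which number the averaged pair was given. As number 2 it gave 0 genes and 0 markers, as number 3 it gave 1254 genes and 1 marker, Kitlg (-0.65, adjusted p = 0.0470), and all 16 arrays gave 3823 genes and 2 markers, Pdgfra (-0.44, adjusted p = 0.0341) and Prrx1 (-0.58, adjusted p = 0.0474).

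At day 4, too, 0 of the 9 markers passed between the surfaces. The 9 differences between AT-I and AT-II ran from -0.22 (Nes) to 0.18 (Pdgfra), with a median of -0.12 where that of all genes was -0.03, and 0% of genes passed in limma. At an unadjusted p under 0.05 there were 687 genes and 0 markers. For 0 of the 9 markers were the surfaces without overlap, as they were for 0.789% of all genes higher and 1.41% lower. The 95% interval of Pdgfra was -0.28 to 0.63, that of Prrx1 -0.51 to 0.52 and that of Twist1 -0.65 to 0.70. Whether time acted differently on the surfaces was tested as the change on AT-I minus the change on AT-II. In limma 0 of the 9 markers and 0% of genes passed, and 707 genes and 0 markers had an unadjusted p under 0.05. All 9 values were positive, with a median of 0.24 where that of all genes was 0.03. The largest were 0.63 ± 0.36 (SE) for Prrx1, 0.58 ± 0.32 for Pdgfra and 0.55 ± 0.47 for Twist1, each with a limma adjusted p of 0.924. The calls of Prrx1 and Twist1 on AT-I and not on AT-II are therefore not shown to differ between the surfaces.

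The genes that work with the markers were described from a list of 26 ligands, receptors, enzymes and dimer partners. On AT-I 8 of the 26 rose and 0 fell, with a median of 0.19, and on AT-II 6 rose and 0 fell, with a median of 0.06. Of all genes 8.84% passed as higher on AT-I and 3.13% on AT-II, and their median was -0.05 on each surface. Beside the PDGF ligands, Tcf4, an E protein that pairs with Twist1, rose on AT-I by 0.55 ± 0.11 (limma adjusted p = 0.00540). Twist2, a close relative of Twist1, was counted among the 8, but 3 of 4 AT-I day 4 samples and 4 of 4 AT-I day 2 samples were at or below the low end of their arrays, so its difference says little of its expression, and with array weights it did not pass (0.51, adjusted p = 0.0537). Id3, which sequesters E proteins, had 1.15 on both surfaces, with a limma adjusted p of 0.00896 on AT-I and 0.0332 on AT-II. Prrx2, the relative of Prrx1, rose by 0.78 ± 0.19 on AT-I (limma adjusted p = 0.0158) and by 0.93 ± 0.21 on AT-II (limma adjusted p = 0.0195). At or below the low end were 2 of 4 AT-I day 2 samples for Prrx2 and 1 of 4 for Id3, and 1 of 3 AT-II day 2 samples for Prrx2. On AT-I Prrx2 had 0.70 (adjusted p = 0.0522) if AT-I day 2 replicate 1 was left out and 0.71 (adjusted p = 0.0533) if AT-I day 4 replicate 1 was. Ackr3, the scavenging receptor for Cxcl12, had 0.66 on AT-I (limma adjusted p = 0.107) and rose by 1.08 ± 0.27 on AT-II (limma adjusted p = 0.0405). Without AT-II day 2 replicate 1 the AT-II values were 0.73 for Prrx2, 1.01 for Id3 and 1.18 for Ackr3, and none passed (adjusted p = 0.157, 0.203 and 0.101). Each of these also lost its AT-II call without the averaged AT-II day 2 sample or AT-II day 4 replicate 3. Prrx2 lost it without AT-II day 4 replicate 2, Id3 and Ackr3 without AT-II day 4 replicate 1 or 4, and Ackr3 without AT-II day 2 replicate 4. The signalling receptor Cxcr4 had -0.43 on AT-I and -0.46 on AT-II, Kit 0.24 and 0.04, and Entpd1, the enzyme that feeds AMP to Nt5e, -0.22 and -0.19, and none of these passed. Kit was at or below the low end in 1 of 4 AT-I day 4 samples and 2 of 4 AT-I day 2 samples. The AT-II count of 6 fell to 0 without AT-II day 2 replicate 1, to 2 without the averaged AT-II day 2 sample, AT-II day 4 replicate 1 or AT-II day 4 replicate 3, and to 3 without AT-II day 4 replicate 4. It was 2 with each array centred on its median and 3 with quantile normalization repeated.

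A list of 30 further stromal genes had 28 measured. On AT-I 6 rose and 0 fell (median 0.30), and on AT-II 4 rose and 0 fell (median 0.24). The share of all genes that passed as higher was 8.84% on AT-I and 3.13% on AT-II. Of the 6 on AT-I, Foxc1 passed under 21 and Angpt1 under 19 of 28 alternatives. Without AT-I day 2 replicate 1 they had 0.48 and 0.62 (limma adjusted p = 0.0586 and 0.0834). Foxc1 was at or below the low end in 2 of 4 AT-I day 2 samples. Fgfr1, a fibroblast growth factor receptor, rose by 1.78 ± 0.26 (SE) on AT-I (limma adjusted p = 0.000353) and by 1.63 ± 0.28 on AT-II (limma adjusted p = 0.00292). Cdh11, the cadherin of mesenchymal and osteoblastic cells, rose by 1.45 ± 0.20 on AT-I and 1.24 ± 0.21 on AT-II (limma adjusted p = 0.000219 and 0.00336). These 2 genes passed on both surfaces under every alternative. Sox9, counted on AT-II both here and among the cartilage genes below, passed there under 14 of 28. Itga11, a collagen-binding integrin subunit, rose by 1.67 ± 0.27 on AT-I and 1.30 ± 0.29 on AT-II (limma adjusted p = 0.000876 and 0.0203), and Fap, a protease of activated fibroblasts, by 1.26 ± 0.23 on AT-I (limma adjusted p = 0.00196), with 1 of 4 AT-I day 2 samples at or below the low end for Itga11 and 2 of 4 for Fap. The AT-II count was 2 without AT-II day 2 replicate 1, the averaged AT-II day 2 sample, AT-II day 4 replicate 1 or AT-II day 4 replicate 3, and Itga11 lost its call there without any of these (1.14, adjusted p = 0.145, without the first) or AT-II day 4 replicate 2. The rises of osteoblast genes were larger and included more of their list, 17 of 19 measured on AT-I (median 2.11) and 14 of 19 on AT-II (median 1.91, 9 without AT-II day 2 replicate 1). Of the 19, 7 lay above the low end in every sample, so the size of the rises of the others is uncertain. Dlx5, Phex and Omd were at or below it in 4 of 4 AT-I day 2 samples, and Dmp1 and Panx3 in 3 of 4. Runx2, a transcription factor of osteoblast commitment, rose by 1.27 ± 0.17 on AT-I and 1.34 ± 0.18 on AT-II, and Sp7, which acts after it, by 2.01 ± 0.25 on AT-I and 1.84 ± 0.27 on AT-II, with 2 of 4 AT-I day 2 samples at or below the low end for Sp7.

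**Figure D4:**
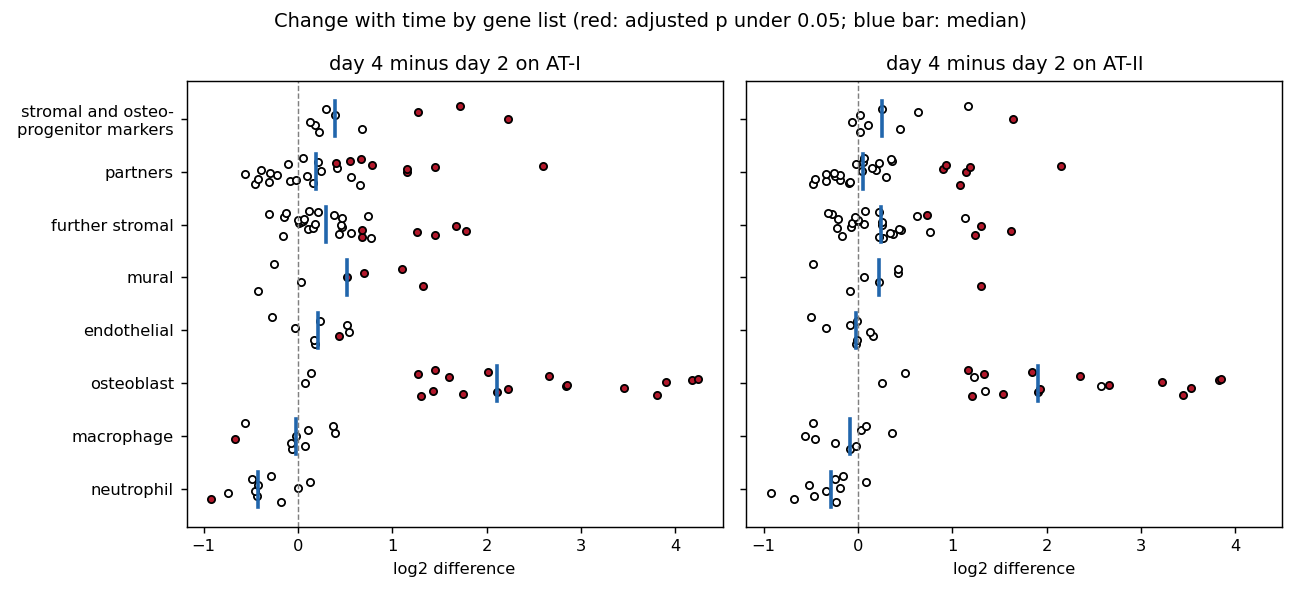
Differences between day 4 and day 2 for the genes of 8 lists, on AT-I and on AT-II, in log2 units. Each point is 1 gene, red where its adjusted p was under 0.05, and the blue bar is the list's median. Osteoblast genes have medians of 2.11 and 1.91, the 9 markers 0.39 and 0.25, and the macrophage and neutrophil genes lie mostly near or below 0. Of the 19 osteoblast genes, 7 lay above the low end in every sample.

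Several markers are also carried by other cells, and the levels of those cells' genes are given beside them. Mural cells of vessel walls carry Pdgfrb, Nes and Thy1. Of 7 measured mural genes, 4 rose on AT-I: Cspg4 by 1.33, Rgs5 by 1.10 ± 0.23 (SE), Notch3 by 0.70 ± 0.15 and Mylk by 0.52. Differences of the 7 ran from -0.43 to 1.33 on AT-I (median 0.52) and from -0.47 to 1.31 on AT-II (median 0.22). Of all genes 8.84% passed as higher on AT-I and 3.13% on AT-II. Cnn1 was at or below the low end in every AT-I sample, and Myh11 in 3 of 4 at AT-I day 4 and 4 of 4 at AT-I day 2. At or below the low end were 3 of 4 AT-I day 2 samples for Cspg4 and 2 of 4 for Notch3, and Notch3 did not pass with the mean of its array rows (0.31, adjusted p = 0.131). The call of Mylk ended without AT-I day 2 replicate 1 (0.44) or 3 (0.41), or AT-I day 4 replicate 1 (0.51), 2 (0.48) or 4 (0.55). On AT-II 1 of 7 rose, Cspg4 by 1.31 ± 0.31, and 0 did without AT-II day 2 replicate 1 (0.98, adjusted p = 0.227), the averaged AT-II day 2 sample, or AT-II day 4 replicate 1, 2 or 3. The mean level of the 7 genes ran over 7.49 to 7.70 in AT-I day 4, 6.76 to 7.46 in AT-I day 2, 7.42 to 8.06 in AT-II day 4 and 7.28 to 7.76 in AT-II day 2. Some T cells carry Nt5e, and immature T cells of rats carry Thy1. Of 8 T cell genes 0 passed in limma on either surface, 0 had an unadjusted p under 0.05, and Cd3e, Cd3d and Cd3g were each at or below the low end in some samples. Their mean level ran over 6.72 to 7.47 in AT-I day 4, 6.31 to 7.32 in AT-I day 2, 7.02 to 7.46 in AT-II day 4 and 6.73 to 7.39 in AT-II day 2. The part of mural cells and T cells in the marker values was not tested.

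All 6 general leukocyte genes, 9 macrophage genes and 10 neutrophil genes lay above the low end in every sample. On AT-I, 1 of 9 macrophage genes and 1 of 10 neutrophil genes passed, both lower, as were 2.66% of all genes. The macrophage gene was Cd14, a receptor for bacterial lipid, which fell by 0.67 ± 0.15 (SE, limma adjusted p = 0.00780). The neutrophil gene was the receptor gene Csf3r, which fell by 0.92 ± 0.21 (limma adjusted p = 0.00907). The macrophage list had a median of -0.02 and a highest value of 0.40 on AT-I, and the neutrophil list -0.43 and 0.13. On AT-II 0 genes of these 3 lists passed in limma, with an unadjusted p under 0.05 in 0 leukocyte, 1 macrophage and 2 neutrophil genes. The mean level of the 10 neutrophil genes ran over 11.03 to 11.75 in AT-I day 4, 11.20 to 12.03 in AT-I day 2, 11.11 to 11.52 in AT-II day 4 and 11.34 to 11.98 in AT-II day 2. Of the endothelial genes, which mark vessels, 8 were measured, with medians of 0.21 on AT-I and -0.02 on AT-II. Egfl7 was the 1 that passed, on AT-I (0.43, limma adjusted p = 0.0454), where 8.84% of all genes were higher, with 2 of 4 AT-I day 2 samples at or below the low end. It lost its call without any single sample other than replicate 2 of AT-I day 2 or replicate 1 of AT-II day 2 (0.32, adjusted p = 0.133, if replicate 1 of AT-I day 2 was the one missing). Of 7 skeletal muscle genes, 1 lay above the low end in every sample. The part of these cells in the marker changes was not tested.

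A few cartilage and nerve genes passed as higher at day 4, as did 8.84% of all genes on AT-I and 3.13% on AT-II. Of 6 measured chondrocyte genes, none of which lay above the low end in every sample, 1 passed on AT-I (list median 0.10) and 2 on AT-II (list median 0.10), and 0 fell. Acan, the core protein of cartilage aggrecan, was 1.27 ± 0.31 (SE) higher on AT-I (limma adjusted p = 0.0146; 1.17, adjusted p = 0.0653, with the interquartile range as a covariate) and 1.29 ± 0.33 higher on AT-II (limma adjusted p = 0.0450). Sox9, the transcription factor of cartilage formation, was 0.73 ± 0.19 higher on AT-II (limma adjusted p = 0.0391) and had 0.38 on AT-I (limma adjusted p = 0.161). At or below the low end were 3 of 4 AT-I day 2 samples and 1 of 3 AT-II day 2 samples for Acan. Sox9 was at or below it in 2 of 4 AT-I day 2 samples. On AT-II, Acan passed under 12 of 28 alternatives and Sox9 under 14 of 28. Without AT-II day 2 replicate 1 they had 0.92 (adjusted p = 0.317) and 0.64 (adjusted p = 0.230). Leaving out 1 sample, Acan kept its AT-II call only if that was replicate 1 or 3 of AT-I day 2 or replicate 4 of AT-II day 2. Sox9 kept it in these cases and also if the sample was replicate 1, 3 or 4 of AT-I day 4 or replicate 2 of AT-II day 4. Of 5 measured Schwann cell and neural genes Ncam1, an adhesion molecule, was the 1 that passed on AT-I (0.90 ± 0.25, limma adjusted p = 0.0271). On AT-II 0 passed in limma, where Ncam1 had 0.72 (limma adjusted p = 0.218) and 1 gene had an unadjusted p under 0.05. The median of these 5 genes was -0.19 on AT-I and -0.02 on AT-II, and Ncam1 did not lie above the low end in every sample. The AT-I call of Ncam1 ended if the sample left out was AT-I day 2 replicate 1 (0.69, adjusted p = 0.0858) or 2 (0.87, adjusted p = 0.0503). Of the AT-I day 4 samples, leaving out replicate 1 (0.86, adjusted p = 0.0711) or 4 (0.89, adjusted p = 0.0710) ended it too. It also ended with each array centred on its median, with quantile normalization repeated and with the interquartile range as a covariate. The part of cartilage and nerve cells in the marker changes was not tested.

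The genes whose profile over the 15 samples was most like that of each marker that passed were found by the root mean square difference of the profiles, each minus its own mean. For Pdgfra they were Lgr4 (0.187 on the log2 scale), Pard6g (0.203) and the osteoblast factor gene Sp7 (0.214), where the SD of Pdgfra itself over the samples was 1.07. For Prrx1 they were Rai14 (0.129), Nxn (0.147) and Fermt2 (0.158), with an SD of 0.65 for Prrx1. For Twist1 they were Vkorc1 (0.180), Adgra3 (0.194) and Mmp23 (0.196), with an SD of 0.91 for Twist1. Among the markers themselves the closest profiles were those of Pdgfrb and Nt5e, at 0.267. All these profiles share the same arrays.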

How the data were processed

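RNA from cells on retrieved implants was hybridised to 16 arrays. Per the submitters' processing notes, Affymetrix Expression Console and its RMA method gave the deposited log2 values. The log base is inferred from RMA, and neither software versions nor a genome build is given in the sources used here. Values ran from 1.82 to 14.0. Of 29214 rows, 18644 naming 1 gene through the platform annotation were kept, and the brightest row stood for each of 879 genes with several. Not used were 962 rows that name several genes and 9608 that name none.

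Groups came from sample titles. Group means without a covariate were fitted by lmFit and eBayes of limma 3.58.1 (R 4.3.3) to 17245 genes in 15 samples, with two-sided tests, Benjamini-Hochberg adjustment over all genes and a threshold of 0.05. The fit had 11 residual and 4.44 prior degrees of freedom. The fit was tested on simulated data with 200 of the 17245 genes changed. Over the 4 comparisons, 15.9% to 26.4% of log2 changes of 0.5 were recovered. For changes of 1 it was 69.7% to 82.1%, and for changes of 2 it was 97.0% to 99.5%. The simulated spread was drawn for each gene alone, without shifts shared by the genes of an array. The closest pair of AT-II day 2 arrays (replicates 2 and 3) was averaged. The 28 alternatives covered scaling, filtering, array weights, the pair, the replicate block, the samples fitted and leaving out each sample, and 1 was chosen after seeing the data. The markers, gene lists and tests were chosen with earlier results of these data known. Genes named from the lists were those with the smallest p, up to 6 per direction (2 for lists of other cell types), and some were left unnamed. The labels give 4 rats per day without tying a sample or its number to a rat, so p-values measure the spread between these samples. For want of such a tie the numbers were not taken as pairs in the main fit. Of 8 same-numbered pairs of surfaces, the correlation of deviations ran from -0.34 to 0.64 and was over 0.1 in 6. Of 24 other pairs it ran from -0.52 to 0.56 and was over 0.1 in 9. These values do not settle whether the numbers pair the samples. Python 3.11.15 with numpy 2.4.6, scipy 1.17.1 and pandas 2.3.3 was used for array checks, promoters and figures.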

Additional observations from a re-analysis of the deposited data

How the results depend on the processing

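Over 28 alternatives the rises of Pdgfra on both surfaces and of Prrx1 and Twist1 on AT-I kept their direction and passed, at 2.07 to 2.32 and 1.40 to 1.83 for Pdgfra (AT-I, then AT-II), 1.08 to 1.47 for Prrx1 and 1.43 to 1.90 for Twist1. On AT-I the number of markers that passed was 3 to 5 when a sample was left out, and of all genes 1158 to 2954, with 1314 with the interquartile range as a covariate and 1060 with only the compared groups fitted. On AT-II it was 1 to 3 markers and 223 to 694 genes when a sample was left out (294 without the averaged sample), 2 markers with all 16 arrays, 2 markers and 1228 genes with array weights, and 334 genes with both day 2 samples numbered 1 left out. Between surfaces at day 2 it was 0 markers and 0 to 711 genes when a sample was left out (711 without AT-I day 2 replicate 2), 2193 genes with all 16 arrays, 1 with quantile normalization repeated, and 3713 genes and 2 markers (Pdgfrb and Nt5e) with array weights. At day 4, and for the difference between time courses, 0 markers and 0 genes passed in limma under every alternative.

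With the replicate number as a block, the labels not saying that numbers pair samples, 2 markers passed on AT-II (averaged pair as number 3, and all 16 arrays, with 919 genes). Between surfaces at day 2, 1 marker and 1254 genes passed with the pair as number 3, and 2 markers and 3823 genes with all 16 arrays. Under the block Cxcl12 on AT-II had -0.089 (pair as number 3) and Nes had -0.012 between time courses (all 16 arrays).

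Signs turned for values that did not pass. Over the days on AT-I these were Nt5e centred on array medians (-0.029) and quantile normalized again (-0.074), Nes with array weights (-0.069) and Cxcl12 with the interquartile range (-0.11). On AT-II they were Pdgfrb and Cxcl12 centred (-0.081 and -0.080) and Cxcl12 with the interquartile range (-0.011). Between surfaces at day 2 Thy1 had 0.12 centred, 0.19 quantile normalized, 0.10 with array weights, 0.15 with the interquartile range and 0.0026 without both samples numbered 1, and Cxcl12 and Kitlg had 0.16 and 0.18 with the interquartile range. At day 4 Twist1 had -0.011 with array weights, and Cxcl12, Prrx1 and Kitlg had 0.062, -0.092 and 0.058 with the interquartile range. Between time courses Nes had -0.012 with 16 arrays, -0.17 with array weights and -0.0094 without both samples numbered 1. Thy1 had -0.0099 centred, -0.099 quantile normalized, -0.079 with array weights and -0.055 with the interquartile range, Cxcl12 -0.031 with array weights, -0.10 with the interquartile range and -0.068 without both samples numbered 1, and Kitlg -0.12 with the interquartile range. Leaving out each sample gave, on AT-II, Pdgfrb -0.11 to 0.12, Cxcl12 -0.064 to 0.13, Nes -0.060 to 0.36 and Nt5e -0.12 to 0.026, with Cxcl12 at -0.046 and Nes at -0.057 without the averaged sample. It gave Thy1 -0.16 to 0.15 between surfaces at day 2, Prrx1 -0.054 to 0.11, Twist1 -0.15 to 0.14 and Thy1 -0.0058 to 0.056 at day 4, and Thy1 -0.12 to 0.19 and Nes -0.18 to 0.24 between time courses. The causes were not tested. Signal over background limits Nes most, and Pdgfra, Twist1 and Kitlg in AT-I day 2.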
